A study of Homo sapiens with 6 samples.

Results

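The exons described here were rarely included in untreated neuroblastoma cells: their mean inclusion over the 3 Control libraries was at least 0.5% and below 5%. Inclusion is the percent of a gene's transcripts, judged from reads across splice junctions, that carry an exon and do not skip it. An exon was considered when it was scored LOW, OK or SOK for coverage and held 10 reads or more in each of the 6 libraries. Of 223565 listed exons, 99198 met these conditions, and 6615 of them were rarely included by this rule. A further 12704 lay below 0.5% and 79879 lay at 5% or more, among them 72069 at 95% or more.

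All libraries came from SKNBE2, 1 human neuroblastoma line whose genotype is given as MYCN amplified. Control was compared with DFMO (difluoromethylornithine, at 250 µM for 4 days), an inhibitor of ornithine decarboxylase that lowers polyamine synthesis. Each group had 3 stranded mRNA libraries, and the labels do not say what the Control cells received or whether replicates were separate cultures. P-values therefore measure only the spread between these libraries, which may be technical. Event reads per library ran from 77648922 to 103250467. Of 11 noradrenergic neuroblast markers, 10 had a level from junction reads (the exception was HAND2). Of 7 mesenchymal markers 1 had a level (LUM), beside 0 of 3 blood markers and 0 of 2 epithelial markers. Such a level was taken only from measured exons outside the rarely included set. HAND2 had 2628 to 3827 reads that skipped its rarely included exon in each library. A missing level therefore does not show that a gene was silent.

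An exon that most transcripts skip can have several histories. Some are conserved "poison" exons, which bring an in-frame stop codon and send the transcript to nonsense-mediated decay. Genes of splicing factors are known for them, because such an exon lets a factor limit its own messenger RNA. Others arise within introns from transposable elements. An Alu element inserted antisense to a gene holds sequences that resemble splice sites, and many exons of primates began in this way. Decay removes transcripts with a premature stop, so the inclusion of a poison exon in steady-state RNA is lower than the share of transcripts spliced that way.

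The first sequences below are shown because each ends its reading frame. The letters run from the first base of the exon to the stop codon, which is in capitals, in the frame that the annotated coding sequence brings to the exon. They are the sense strand, 5′ to 3′, from GENCODE transcripts on GRCh38.
U2AF2, chr19:55658862-55658981, bases 1 to 110 of 120: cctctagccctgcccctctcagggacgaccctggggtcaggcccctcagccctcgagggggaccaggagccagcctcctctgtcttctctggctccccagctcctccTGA
KNSTRN, chr15:40384457-40384519, bases 1 to 38 of 63: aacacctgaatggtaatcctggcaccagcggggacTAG
TTYH3, chr7:2659940-2660040, bases 1 to 81 of 101: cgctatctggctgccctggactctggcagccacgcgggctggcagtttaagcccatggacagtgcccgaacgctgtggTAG
RBM25, chr14:73100301-73100362, bases 1 to 18 of 62: agatcatatggtgacTAA
SF3B1, chr2:197418896-197418951, bases 1 to 20 of 56: gcttctattctgctgctTGA
LUC7L3, chr17:50737287-50737479, bases 1 to 74 of 193: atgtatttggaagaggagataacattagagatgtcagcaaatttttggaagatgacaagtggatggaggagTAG
SNRPB, chr20:2467192-2467315, bases 1 to 58 of 124: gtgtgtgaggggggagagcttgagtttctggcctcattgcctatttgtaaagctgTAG

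The others are microexons, exons of 3 to 27 nt, shown whole because so short an exon adds only a few residues.
CACNA2D2, chr3:50373065-50373085, 21 bases: tgccaatcagcaaactgaagg
SSRP1, chr11:57330733-57330741, 9 bases: aaaaaagag
TPD52L2, chr20:63886016-63886042, 27 bases: ggctcatccattttcacactcctttag

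Most of the rarely included exons were not part of the reference annotation. Of the 6615, 4190 (63.3%) matched no exon of GENCODE v29 in both start and end, against 5.58% of exons at 95% or more. Of these 4190, 3151 (75.2%) overlapped no annotated exon at all. Only 689 (10.4%) lay in annotated coding sequence, against 93.0% of the exons at 95% or more. A further 590 (8.92%) belonged to transcripts annotated for nonsense-mediated decay and held their stop codon, 228 (3.45%) lay elsewhere in such transcripts, 535 (8.09%) lay in transcripts without coding sequence, 348 (5.26%) lay in untranslated regions and 35 were terminal exons.

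The reading frame entering the exon was known for 1845 of them. Of these, 1100 (59.6%) held an in-frame stop codon, 432 (23.4%) kept the frame without a stop and 313 (17.0%) shifted it. An in-frame stop was found in 0.778% of exons at 95% or more, in 13.1% of those from 5% to under 95% and in 58.1% of those under 0.5%. By this count the rarely included exons were close to the exons below them and far from those above. Length separated the sets less: the median was 104 nt, against 119 nt at 95% or more. Lengths divisible by 3 made up 37.1%, against 37.9%.

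An annotated sequence existed for 2390 of the rarely included exons. GGGATTACA, letters of the Alu consensus read against the element's own direction, occurred in 126 of them (5.27%), and the same letters on the other strand, TGTAATCCC, occurred in 30 (1.26%). In exons at 95% or more the antisense letters occurred in 0.0456%, in those from 5% to under 95% in 1.26%, and in those under 0.5% in 6.09%. Matches of the 2 words cannot overlap, and a match describes the letters only. Base composition did not separate the sets, with a median GC content of 48.3% both here and at 95% or more. Microexons numbered 172 (2.6%), against 0.268% of exons at 95% or more and 9.33% of those under 0.5%. These shares compare exons chosen by level within the same libraries and are given without a test.

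**Figure D1:**
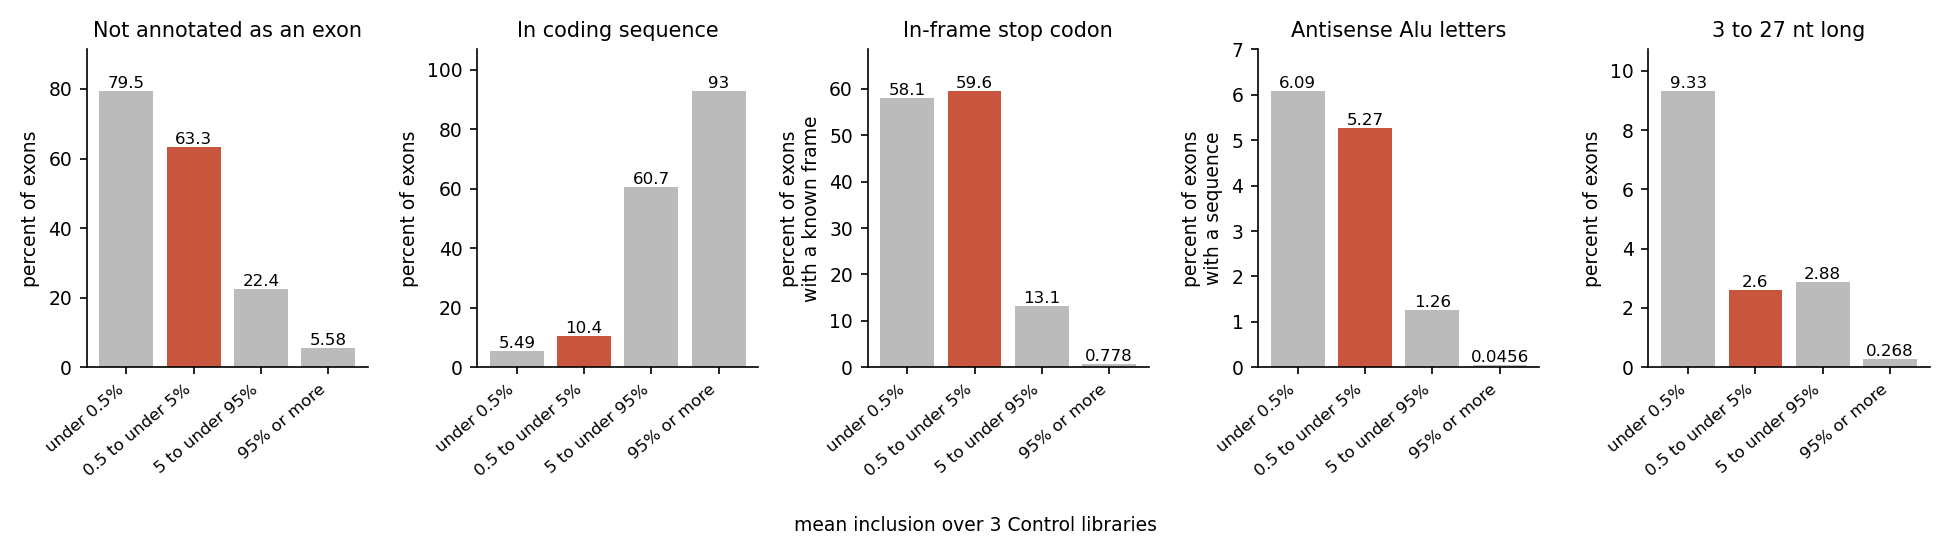
Bars give 5 features of exons (y axes, percent of exons, of exons with a known frame, or of exons with a sequence) in 4 classes of mean Control inclusion (x axes), with the rarely included class in red. Exons without annotation made up 79.5% of the lowest class and 5.58% of the highest, and coding exons 5.49% and 93.0%, while in-frame stops stood at 58.1% and 59.6% in the lower classes and at 0.778% in the highest.

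The rarely included exons lay in 3925 genes, and 14 of them had no gene symbol. In 2320 genes there was 1 such exon, in 1605 there were 2 or more, and in 110 there were 5 or more. None overlapped another. PCBP3, which encodes a poly(C)-binding protein, held 9, the highest number. ADAMTS19, CAMKMT, NR2F1-AS1, SETD5, TANC2, THRAP3 and UBE3D held 8 each.

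Few reads stood behind most of these values. The median exon had 7 inclusion junction reads summed over the 3 Control libraries and 7 over the 3 DFMO libraries, beside a median of 67 to 89 skipping reads in each library. In the Control libraries, 985 exons had 2 or fewer inclusion junction reads in all, and 2609 had 10 or more. Inclusion was above 0 in all 3 Control libraries for 3563 exons (53.9%), in 2 for 1903 (28.8%) and in 1 for 1149 (17.4%). In the DFMO libraries, 726 exons (11%) were at 0 throughout, which says only that no inclusion read was seen there.

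Inclusion averaged over the 6615 exons was 1.81%, 1.84% and 1.78% in the Control libraries and 1.96%, 2.01% and 1.94% in the DFMO libraries. The averages of the DFMO libraries were all higher. The medians went the other way, with 1.37%, 1.43% and 1.35% in Control and 1.20%, 1.18% and 1.12% in DFMO. More exons were at 0 in each DFMO library (26.7% to 29.8%) than in each Control library (19.6% to 22.0%). The Control values chose these exons, and an exon at 0 in every Control library could not be chosen, so these shares at 0 are a description only. When the choice was made without a Control library, as described below, that library had 30.1%, 30.5% or 27.2% of the exons at 0, against 26.4% to 30.2% in the DFMO libraries. Single exons were higher in DFMO in 2899 cases, lower in 3700 and equal in 16, which is likewise no test.

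Under DFMO the exons spread beyond the limits that chose them. Their DFMO mean was under 0.5% for 1574 (23.8%), within the limits for 4458 (67.4%), from 5% to under 10% for 522 (7.89%) and at 10% or more for 61. The highest was 22.97%, in MTMR10. When the DFMO libraries made the choice, 6558 exons fell within the limits, and they averaged 1.80% in DFMO and 1.73% in Control. Exons 5 points higher in the group that did not choose numbered 141 with Control choosing and 91 with DFMO choosing, and those 10 points higher numbered 13 and 10. The 4458 exons chosen by both were 67.4% of the first set and 68.0% of the second.

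A choice made with 2 Control libraries left the third free for comparison. The free library averaged 1.78%, 1.79% and 1.76% for Control replicates 1, 2 and 3, on 6388, 6391 and 6384 exons. On the same exons the DFMO libraries averaged 1.93% to 2.03%. In each of the 3 choices, every DFMO library was above the free Control library. Exons at 10% or more numbered 72, 62 and 59 in the free Control library and 111 to 140 in a DFMO library. Counted by exon, the free Control value lay below all 3 DFMO values in 21.2%, 20.8% and 20.5% of exons. It lay above all 3 in 22.7%, 24.2% and 22.9%. A free value of 0 cannot lie below a DFMO value of 0, so ties at 0 lower the first share, and no order is read from these shares. With 1 library against 3 no test was made.

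**Figure D2:**
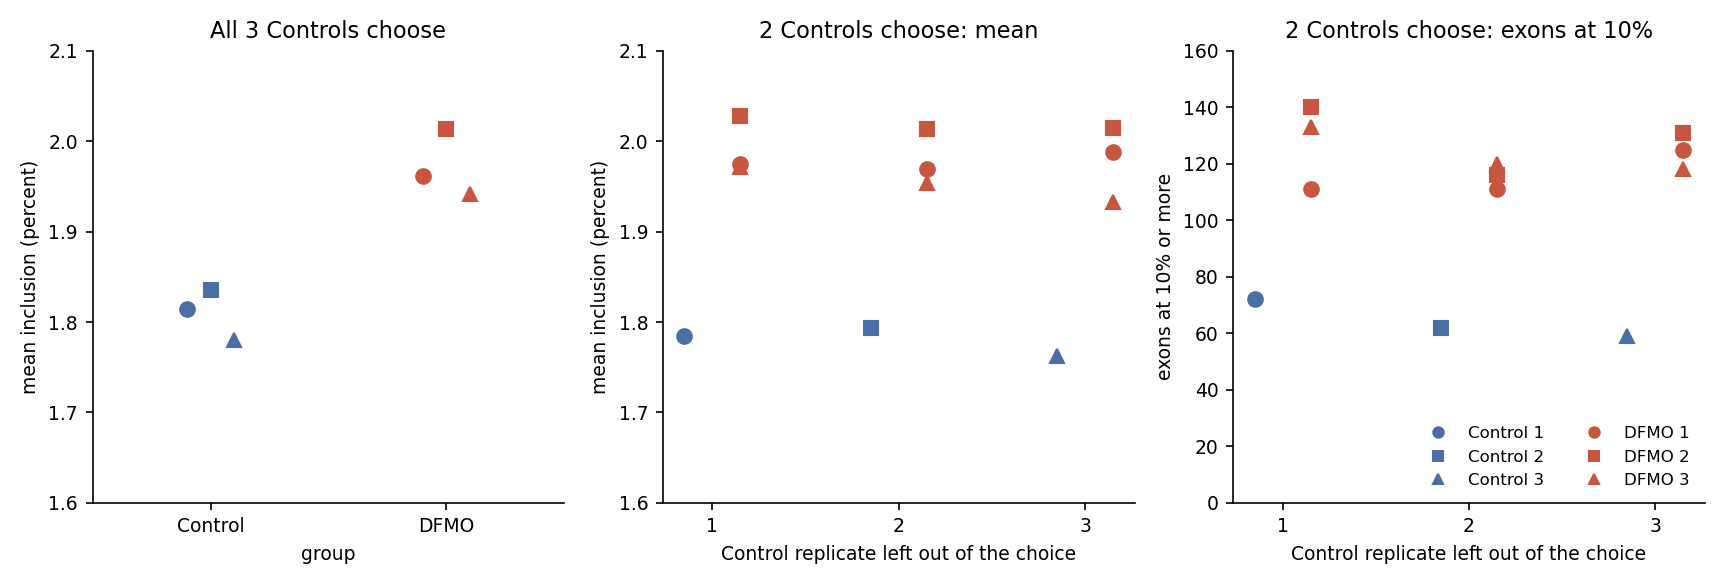
Points are libraries, blue for Control and red for DFMO; the left panel plots mean inclusion (percent) of the 6615 exons, and the others plot mean inclusion (percent) and the number of exons at 10% or more after a choice by 2 Control libraries, against the replicate left out. The mean axes start at 1.6% and not at 0. The free Control libraries lie at 1.76% to 1.79% and the DFMO libraries at 1.93% to 2.03%.

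Across all exons, 38489 were fitted with limma on the log2 odds of inclusion, and p-values were adjusted over all of them by the Benjamini-Hochberg method. Of these exons, 0.689% passed an adjusted p of 0.05 with higher inclusion in DFMO, 0.156% passed with lower inclusion, and 0.377% passed and were at least 10 points higher. Among the 6615 rarely included exons, 7 (0.106%) passed with higher inclusion in limma's test, 0 passed with lower inclusion, and 0 of those that passed were 10 points higher. At an unadjusted p below 0.05, limma gave 136 higher (2.06%) and 43 lower (0.65%), against 7.15% and 2.92% of all fitted exons. A quasi-binomial test on the same reads gave 58 higher (0.877%), 8 of which were 10 points higher (0.121%), and 19 lower (0.287%). Over all fitted exons it called 1.75% higher, 0.8% with 10 points, and 0.611% lower. Every one of these shares was below that of all fitted exons. The 95% interval of the log2 odds difference reached 2.13 to either side for the median exon, so that for most of them a change of several fold in either direction was not detectable at this depth.

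The groups did not overlap, with DFMO higher, for 484 exons (7.32%), and with DFMO lower for 414 (6.26%). Of all fitted exons these shares were 8.57% and 4.28%. The median log2 odds difference was -0.11 for the rarely included exons and 0.18 for all fitted exons. Since Control values enter both the choice and the difference, nothing is read from these counts.

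**Figure D3:**
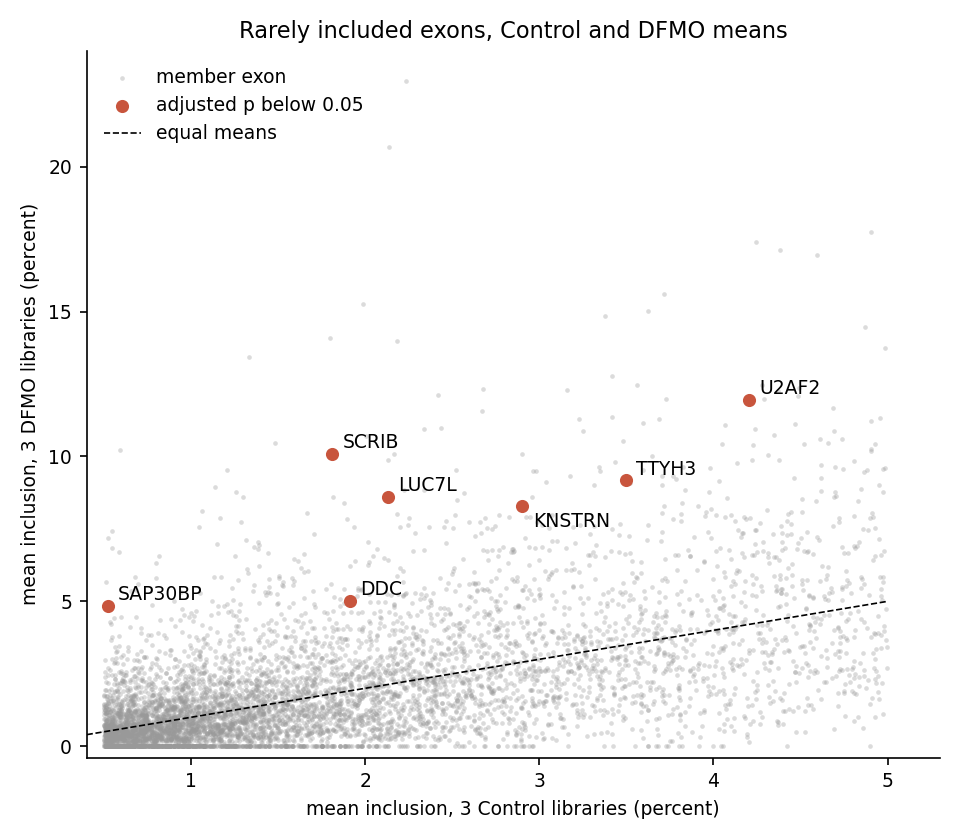
Each point is 1 rarely included exon, with its mean inclusion in percent over the 3 Control libraries (x axis) and over the 3 DFMO libraries (y axis); red points passed an adjusted p of 0.05 and the dashed line marks equal means. The 7 exons that passed have DFMO means of 4.85% (SAP30BP) to 11.9% (U2AF2), and grey points, some of them higher, did not pass.

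Of the 7 exons, 3 carry a stop codon shown above. U2AF2 encodes the large subunit of the factor that binds the pyrimidine tract before a 3′ splice site. Its 120-nt exon, which ends the frame at TGA, was included at 4.73%, 4.45% and 3.43% in Control replicates 1 to 3 and at 9.44%, 13.2% and 13.19% in DFMO replicates 1 to 3. All DFMO libraries were above all Control libraries. Upstream, downstream and skipping junction reads were 15, 16 and 585 in Control replicate 1 and 39, 36 and 652 in DFMO replicate 1, so both junctions of the exon had more reads in DFMO. The means were 4.2% ± 0.684 and 11.9% ± 2.17 (SD, n = 3 each), a log2 odds difference of 1.61 ± 0.28 (SE) with an adjusted p of 0.00362 in limma. A second rarely included exon of U2AF2, 60 nt long and not annotated, had means of 3.56% and 5.80%, with DFMO above Control in every library and an adjusted p of 0.27.

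KNSTRN encodes a protein of the kinetochore and the mitotic spindle. Its 63-nt exon, with TAG ending at base 38, was at 3.68%, 2.35% and 2.68% in Control and at 7.71%, 7.03% and 10.18% in DFMO (adjusted p = 0.0408 in limma). Its downstream junction had fewer reads than its upstream junction in every library, with 3 against 17 in Control replicate 2 and 4 against 45 in DFMO replicate 2. TTYH3 encodes a membrane protein of the tweety family. Its 101-nt exon, which lies in annotated coding sequence and ends its frame at TAG, was at 4.03%, 3.83% and 2.63% in Control and at 10.89%, 7.14% and 9.50% in DFMO (adjusted p = 0.0297). In both genes the lowest DFMO library was above the highest Control library.

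The other 4 exons were not annotated, so no frame could be given for them. LUC7L encodes a partner of the U1 particle, which recognises the 5′ splice site. Its 57-nt exon (chr16:208601-208657) was at 2.21%, 2.37% and 1.81% in Control and at 10.2%, 7.03% and 8.62% in DFMO, a log2 odds difference of 2.05 ± 0.44 (SE) with an adjusted p of 0.0224. SAP30BP, named for its binding to a subunit of a histone deacetylase complex, had a 54-nt exon (chr17:75705611-75705664) at 0.66%, 0.14% and 0.76% in Control and at 3.95%, 4.45% and 6.15% in DFMO. It had 14 inclusion junction reads over the Control libraries and 95 over the DFMO libraries, and a log2 odds difference of 3.17 ± 0.74 (SE), which was the highest of the 7 (adjusted p = 0.0383). In both genes the groups were apart.

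SCRIB encodes a scaffold of epithelial and neuronal cell polarity. Its 84-nt exon (chr8:143793257-143793340) was at 2.53%, 2.25% and 0.65% in Control and at 11.21%, 10.67% and 8.41% in DFMO (adjusted p = 0.0382), with few reads on its upstream junction, 0 in Control replicate 3 and 4 in DFMO replicate 3. DDC encodes the decarboxylase that makes dopamine and serves as a marker of noradrenergic cells. Its 123-nt exon (chr7:50539396-50539518) was at 1.30%, 2.34% and 2.1% in Control and at 4.43%, 5.03% and 5.62% in DFMO (adjusted p = 0.0444). For SCRIB and DDC, too, every DFMO value exceeded every Control value. DDC, LUC7L and U2AF2 were named by the rule for gene lists, and TTYH3, KNSTRN, SCRIB and SAP30BP were named after their values were seen.

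With a library left out the differences stayed near those given above, from 7.11 to 8.99 points for U2AF2, while most calls were lost. Without Control replicate 1 or without DFMO replicate 1, only U2AF2 passed (adjusted p = 0.0379 and 0.0237), and without any other single library none of the 7 did, with an adjusted p for U2AF2 of 0.0635 to 0.0912. With all 6 libraries but no variance trend in limma, none of the 7 passed (adjusted p = 0.218 to 0.628), and on the percent scale U2AF2, SCRIB and LUC7L passed and the other 4 had an adjusted p of 0.0555 to 0.0708.

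**Figure D4:**
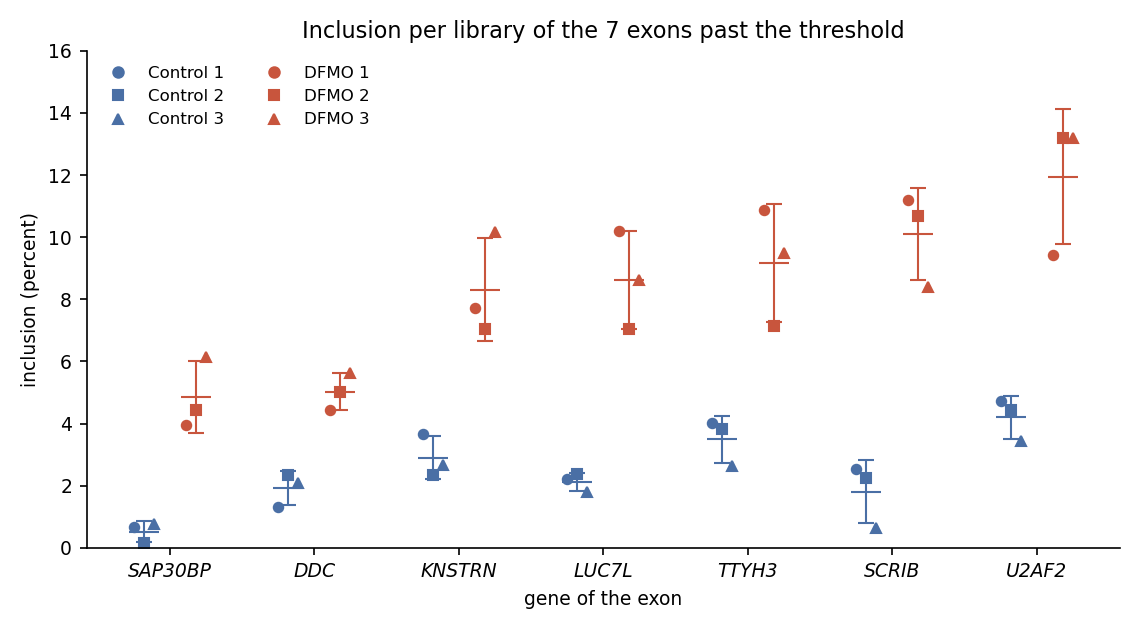
Inclusion in percent (y axis) of the 7 exons past the threshold (x axis, by gene) in each Control (blue) and DFMO (red) library; bars are the mean ± SD of 3 libraries. In all 7 the DFMO libraries lie above the Control libraries, from 3.95% to 6.15% for SAP30BP and from 9.44% to 13.2% for U2AF2.

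The exons with the widest shifts in percent did not pass, and they had few reads. In 13 exons the DFMO mean was 10 points or more above the Control mean. MTMR10, of the myotubularin family, had a 166-nt exon with a stop codon at 1.45%, 2.05% and 3.20% in Control and at 17.02%, 16.18% and 35.71% in DFMO. The groups were far apart, but the exon had 5 inclusion junction reads in Control and 51 in DFMO, and its adjusted p was 0.17. CSTF2, which encodes a subunit of the cleavage stimulation factor of 3′ end formation, had a 60-nt coding exon at 3.45%, 1.85% and 0.66% in Control and at 12.24%, 14.89% and 18.68% in DFMO (6 and 36 inclusion junction reads). FIGNL1, an ATPase of DNA repair by recombination, had an 88-nt exon at 0.00%, 0.51% and 3.48% in Control and at 15.74%, 13.15% and 11.37% in DFMO. ETFDH, which passes electrons from flavoproteins to the respiratory chain, had a 44-nt exon with means of 1.80% and 14.1%. FUT10, SEC24A, ZNF559, HERC3, ASAP2, CAPN15, CRAT, FRYL and SIDT2 made up the remainder. Their DFMO means lay between 14% and 20.7%. The exon of SEC24A had 0 downstream junction reads in every library but DFMO replicate 2.

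In some of these the libraries of a group lay far from each other. The 12-nt exon of SIDT2, a lysosomal membrane protein, was at 8.41%, 2.33% and 2.0% in Control and at 37.9%, 10.31% and 4.00% in DFMO. Its groups overlapped, and DFMO replicate 1 alone was far above the others. The 18-nt exon of FRYL was at 0.00%, 5.26% and 5.88% in Control and at 15.1%, 27.39% and 4.35% in DFMO, again with overlap. CRAT, carnitine acetyltransferase, had an exon with a stop codon at 8.33%, 25.58% and 11.11% in DFMO against 4.75%, 0.00% and 6.12% in Control. The 130-nt exon of ASAP2, an activator of Arf GTPases, was at 3.08%, 4.76% and 2.30% in Control and at 12.1%, 14.04% and 18.45% in DFMO, with the groups apart and an adjusted p of 0.172 in limma's test.

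No exon passed with lower inclusion, where 43 had an unadjusted p below 0.05 in limma and 19 passed the quasi-binomial test. The lowest p among them belonged to a 183-nt coding exon of FKBP10, a prolyl isomerase of collagen folding. It was at 4.02%, 3.05% and 3.05% in Control and at 1.16%, 1.47% and 1.14% in DFMO. The groups did not overlap, and the log2 odds difference was -1.42 ± 0.37 (SE) with an adjusted p of 0.0756. A 214-nt exon with a stop codon in SNAP91, a clathrin assembly protein of synapses, was at 3.41%, 5.41% and 3.76% in Control and at 0.62%, 0.25% and 0.35% in DFMO (57 and 7 inclusion junction reads, adjusted p = 0.10). EIF3G, of translation initiation factor 3, had a 118-nt exon at 1.41%, 1.95% and 2.08% in Control and at 0.52%, 0.79% and 0.42% in DFMO. Its downstream junction had few reads, with 3 against 26 upstream in Control replicate 1 and 0 against 13 in DFMO replicate 1. CCNB1IP1, a ubiquitin ligase of meiotic recombination, had an exon with a stop codon with means of 3.35% and 1.24%. SRSF5, an SR protein, had a 337-nt exon that was not annotated with means of 0.95% and 0.217%. These 5 exons were chosen after their values were seen.

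Intervals were narrowest where reads were many. The 5 exons with an adjusted p above 0.05 and the narrowest intervals were in NDUFA11, PKM, H2AFY, PHPT1 and HDGF. The exon of NDUFA11, a subunit of respiratory complex I, holds a stop codon and was at 5.17%, 4.48% and 4.67% in Control and at 4.25%, 4.67% and 4.29% in DFMO, with overlapping groups. Its log2 odds difference had a 95% interval from -0.46 to 0.22. PKM encodes pyruvate kinase, and a pair of mutually exclusive exons separates its M1 and M2 forms. Its rarely included 167-nt exon was at 2.07%, 2.53% and 2.71% in Control and at 3.52%, 3.85% and 3.33% in DFMO, on 980 and 1214 inclusion junction reads. Every DFMO value was higher, with an interval from 0.23 to 0.91 and an adjusted p of 0.13. The means of H2AFY, a histone variant, were 4.45% and 5.54%. Those of PHPT1, a phosphohistidine phosphatase, were 4.18% and 5.69%, and those of HDGF, a growth factor, were 3.36% and 4.67%.

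Genes of the splicing machinery held 152 of the rarely included exons in 97 genes, from 3 lists of SR proteins and related factors, of hnRNPs and other regulators, and of the core spliceosome. Of the 53 with a known frame, 34 held a stop codon, beside 1066 of 1792 among the other rarely included exons. The share over all rarely included exons with a known frame was 59.6%. Inclusion of the 152 averaged 1.80% in Control and 2.26% in DFMO, against 1.81% and 1.97% for the other 6463 rarely included exons. Of the 152, 2 passed (U2AF2 and LUC7L), and of the other 6463, 5 passed. Over all fitted exons, 0.689% passed with higher inclusion, and whether the 152 differ from these was not tested. The median log2 odds difference was 0.05 for the 152 and -0.11 for the others. At an unadjusted p below 0.05 in limma, 12 of the 152 were higher and 3 lower, beside 124 and 40 of the other 6463. Of all fitted exons, 7.15% were higher and 2.92% lower at that p.

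In the list of SR proteins and related factors, 46 exons in 25 genes had medians of 1.57% in Control and 2.06% in DFMO. LUC7L3, a relative of LUC7L, held a pair of exons with stop codons whose differences had opposite signs. The 193-nt exon was at 3.24%, 3.92% and 2.30% in Control and at 5.72%, 5.55% and 7.0% in DFMO (adjusted p = 0.33). Its groups did not overlap. The 121-nt exon was at 2.95%, 3.95% and 3.47% in Control and at 3.31%, 2.23% and 2.94% in DFMO (adjusted p = 0.77), with overlap. ARGLU1, a coactivator that also acts in splicing, had a 58-nt exon with means of 3.69% and 3.65%, and LUC7L2 had a 71-nt coding exon with means of 4.37% and 4.81%.

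Among hnRNPs and other regulators, 55 exons in 34 genes had medians of 1.41% and 1.33%, and none passed. At an unadjusted p below 0.05, limma gave 3 higher and 2 lower, against 7.15% and 2.92% of all fitted exons. The 62-nt exon of RBM25, a regulator that binds U1-associated factors, reaches its stop codon within 18 bases. It was at 2.75%, 2.94% and 2.30% in Control and at 4.96%, 7.63% and 9.45% in DFMO (adjusted p = 0.17), and all DFMO libraries were above all Control libraries. The 156-nt exon of RBM39, a splicing factor related to U2AF2, also holds a stop codon and had means of 0.63% and 0.99%. A 46-nt exon of HNRNPC, in an untranslated region, had means of 1.41% and 1.22%, HNRNPD had 1.18% and 1.06%, RALY had 2.12% and 1.92%, and RBM3 had 1.72% and 1.33%. For these 4 the limma adjusted p was between 0.69 and 0.94.

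In the core spliceosome, 51 exons in 38 genes had medians of 1.36% and 1.53%. At an unadjusted p below 0.05 in limma, 5 were higher and 0 lower, against 7.15% and 2.92% of all fitted exons. SF3B1, the large subunit of the complex that holds the branch point, had a 56-nt exon with a stop codon at 2.04%, 1.05% and 1.03% in Control and at 2.97%, 2.39% and 2.42% in DFMO (adjusted p = 0.43), without overlap. Its unannotated 70-nt exon had means of 2.54% and 4.05%. The Sm proteins form the ring of the spliceosomal particles. The 124-nt exon of SNRPB, with the stop codon shown above, was at 1.16%, 1.12% and 0.86% in Control and at 1.01%, 0.75% and 0.76% in DFMO. The 115-nt exon of SNRPD2 was at 3.85%, 3.92% and 2.78% in Control and at 3.41%, 3.53% and 3.52% in DFMO, with 95% limits of the log2 odds difference at -0.73 and 0.74.

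Polyamine metabolism, the pathway that DFMO inhibits, held 7 rarely included exons in 4 genes, and none passed (0 at an unadjusted p below 0.05 in limma). MTAP, which recycles the methylthioadenosine released by polyamine synthesis, had exons with means of 1.16% and 1.0%, and of 0.753% and 1.27%. SLC3A2, a transporter subunit, had means of 0.533% and 0.440%, and of 0.533% and 0.610%. APIP, of the methionine salvage pathway, had 0.683% and 0.25%. ATP13A3, a polyamine transporter, had 1.09% and 0.440%, and 0.733% and 0.213%. Their inclusion junction reads over 3 libraries ran from 2 to 22.

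The list of noradrenergic identity genes held 19 exons in 13 genes, of which that of DDC passed, beside 0.689% of all fitted exons that passed higher. HAND2, a transcription factor of sympathetic neurons, had a 148-nt unannotated exon at 1.23%, 1.17% and 1.07% in Control and at 0.70%, 0.55% and 0.66% in DFMO. The groups did not overlap, and its adjusted p was 0.28 on 223 and 126 inclusion junction reads. KLF7, another transcription factor, had a 219-nt exon with a stop codon with means of 4.42% and 7.78%, and SLC18A1, a vesicular amine transporter, had one with means of 3.51% and 4.26%. At an unadjusted p below 0.05 in limma, 7.15% of all fitted exons were higher and 2.92% lower. Of the 144 exons in 66 genes of neurites, synapses and vesicle release, 0 passed, with 4 higher and 2 lower at that p. The cell adhesion gene NRCAM held 7 of them. Its 4 coding exons had means of 4.79% and 5.29% (126 nt), of 3.70% and 3.64% (36 nt), of 3.28% and 2.64% (153 nt) and of 0.577% and 1.92% (30 nt), and the other 3 had lower means in DFMO.

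In the remaining lists no exon passed in limma's test. Chromatin modifiers held 153 exons in 70 genes, with 4 higher and 0 lower at an unadjusted p below 0.05. Over all rarely included exons 2.06% were higher and 0.65% lower at that p, and over all fitted exons 7.15% and 2.92%. The 68-nt exon of EZH2, the methyltransferase of Polycomb complex 2, was at 5.39%, 5.29% and 4.04% in Control and at 10.65%, 9.48% and 10.42% in DFMO (adjusted p = 0.23), without overlap. The 96-nt coding exon of SMARCA4, a chromatin remodelling ATPase, had means of 2.68% and 4.66%, and that of SMARCE1, of the same complex, had 2.71% and 2.40%. DNA repair held 107 exons in 59 genes, with 2 higher and 0 lower at that p. The 39-nt exon of APEX1, an endonuclease of base excision repair, was at 0.72%, 0.73% and 0.51% in Control and at 1.31%, 1.01% and 1.09% in DFMO. Its upstream junction had few reads, with 0 against 26 downstream in Control replicate 1 and 5 against 50 in DFMO replicate 1. Cell cycle and mitosis held 98 exons in 58 genes, with 0 higher and 2 lower. The 61-nt exon of FOXM1, a transcription factor of mitotic genes, had means of 2.80% and 2.79%.

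Zinc finger factors held 111 exons in 79 genes, with 0 at an unadjusted p below 0.05 in either direction. Of all fitted exons, 7.15% were higher and 2.92% lower at that p. RNA decay and export held 70 exons in 38 genes, with 2 higher and 1 lower. Its exons with stop codons included that of CNOT9, of the deadenylase complex (3.15% and 3.78%), with overlapping groups. Ubiquitin ligases and proteases held 240 exons in 130 genes, with 3 higher and 1 lower. UBE2C, a ubiquitin-conjugating enzyme of mitosis, was at 1.57%, 2.31% and 2.21% in Control and at 2.83%, 2.91% and 3.45% in DFMO, and PSMB5, a catalytic proteasome subunit, had means of 3.77% and 2.97%. Translation factors and tRNA enzymes held 47 exons (0 higher and 1 lower), mitochondrial ribosome and respiration 53 (1 higher and 2 lower) and ribosomal proteins 2 (0 in either direction). In the list of mitochondrial genes, NDUFA3 had means of 2.09% and 2.06%, NDUFB2 of 3.74% and 3.18%, and ATP5L of 0.630% and 0.460%.

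The 126 exons with the antisense Alu letters had medians of 1.23% in Control and 1.37% in DFMO. At an unadjusted p below 0.05, 5 were higher and 0 lower, and none passed in limma's test. Of all fitted exons, 7.15% were higher and 2.92% lower at that p. DPM1 encodes the catalytic subunit of dolichol-phosphate mannose synthase. Its 81-nt exon keeps the frame and was at 3.42%, 3.06% and 4.67% in Control and at 8.13%, 8.25% and 8.53% in DFMO. The groups were apart and the log2 odds difference was 1.23 ± 0.34 (SE), with an adjusted p of 0.0949. The exon with these letters in COPS3, a subunit of the COP9 signalosome, was at 2.65%, 2.38% and 1.75% in Control and at 2.58%, 3.33% and 2.80% in DFMO, with overlap. BTBD2 had means of 4.98% and 8.76%, MRPL48, of the mitochondrial ribosome, had 2.0% and 3.63%, and MCM3, of the replicative helicase, had 4.66% and 5.05%.

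The 172 microexons had medians of 1.38% in Control and 1.05% in DFMO and a median of 6 inclusion junction reads over the 6 libraries. None passed, and at an unadjusted p below 0.05 limma gave 5 higher and 1 lower, against 7.15% and 2.92% of all fitted exons. The 21-nt exon of CACNA2D2, a calcium channel subunit, was at 2.78%, 7.39% and 2.77% in Control and at 9.17%, 11.67% and 9.32% in DFMO (adjusted p = 0.31), without overlap. The 9-nt exon of SSRP1, of the histone chaperone FACT, was at 0.95%, 1.19% and 0.81% in Control and at 2.76%, 2.11% and 1.28% in DFMO (adjusted p = 0.53). The 27-nt exon of TPD52L2 was at 2.42%, 4.00% and 5.06% in Control and at 2.84%, 0.99% and 6.35% in DFMO, a spread wider than the difference of the means. The 17-nt exon of LGALS1, a galectin, had means of 1.09% and 0.883%, and the 21-nt exon of EIF4G1, a scaffold of translation initiation, had 1.88% and 1.29%. The LGALS1 exon had 0 downstream junction reads in every library, beside 23 upstream in Control replicate 1, so no read joined it to the next exon. The EIF4G1 exon had 0 upstream junction reads in all 3 DFMO libraries.

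All 7 exons that passed were among the 712 with 60 or more inclusion junction reads over the 6 libraries. That sum holds the DFMO reads too, so higher inclusion in DFMO itself brings exons into the class, and nothing is read from its counts. By frame, the medians were 1.61% and 1.62% for the 1100 exons with a stop codon, 1.75% and 2.04% for the 432 that kept the frame, and 1.72% and 2.02% for the 313 that shifted it. The 4190 exons without annotation had 1.32% and 1.12%, and the 689 coding exons had 1.81% and 1.94%. The annotated classes also had more reads, with a median of 23 inclusion junction reads over 6 libraries for coding exons and 12 for exons without annotation.

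Within 1 gene the means of the exons went in both directions, but no exon of SETD5 or PCBP3 passed. Whether exons of a gene differed from each other was not tested. The 8 of SETD5, a chromatin regulator related to histone methyltransferases, included a 98-nt exon with means of 3.42% and 11.4%, a 113-nt exon with a stop codon at 2.22% and 2.41%, and a 99-nt exon at 2.45% and 0.363%. The 9 of PCBP3 ranged from 0.50% to 4.45% in Control and from 0.240% to 6.28% in DFMO. Its 109-nt exon was at 1.54%, 0.81% and 0.59% in Control and at 3.47%, 3.03% and 2.82% in DFMO (adjusted p = 0.45).

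Retention of the introns in which these exons lie was a readout that the choice did not use. Retention is the percent of transcripts in which an intron stays in the RNA, and spliced reads of such an intron can be skipping reads of its exon, so the readouts share reads. Of 32708 introns fitted, 0.566% passed with higher retention in DFMO and 0.355% with lower retention. Among the 2702 introns that contained 2999 of the rarely included exons, 29 (1.07%) passed with higher retention and 4 (0.148%) with lower retention. Their median log2 odds difference was 0.29, against 0.19 for all fitted introns and 0.18 for the 30006 introns without such an exon. In genes of the splicing lists, 8 of 71 such introns passed higher and 1 lower. Of 636 introns without such an exon in genes of these lists, 19 passed higher and 2 lower. The 636 were not limited to the genes that held the 71.

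Several introns that passed in splicing genes lie around an exon with a stop codon. In SRSF11, an SR-related protein, the intron around its 62-nt and 109-nt exons was retained at 5.6%, 4.05% and 8.69% in Control and at 22.72%, 26.72% and 11.73% in DFMO (adjusted p = 7.76e-06). In RBM25 the intron around the exon shown above was at 3.30%, 5.33% and 3.53% in Control and at 12.98%, 15.05% and 9.96% in DFMO (adjusted p = 3.88e-07). In both genes the groups were apart, and both introns passed in each of the 6 fits that left out 1 library, with an adjusted p of at most 0.0113 for SRSF11 and 0.000707 for RBM25. Without the variance trend neither passed (adjusted p = 0.395 and 0.393), and on the percent scale RBM25 passed (0.00104) and SRSF11 did not (0.0999). The 109-nt exon of SRSF11 had means of 4.51% and 8.53% (adjusted p = 0.49), beside 3.88% and 4.65% for the 62-nt exon.

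SF3B1 had an intron at 2.42%, 2.61% and 2.40% in Control and at 5.41%, 4.76% and 4.42% in DFMO around the 56-nt exon, and SF1, which binds the branch point, had one at 2.56%, 2.34% and 3.71% against 6.38%, 6.77% and 5.14%. TIA1, a regulator that binds U-rich RNA, had an intron with means of 2.51% and 6.98% around a 66-nt exon with a stop codon, itself at 2.78% and 4.73%. LUC7L had an intron with means of 7.73% and 16.8%, not the one that holds the 57-nt exon that passed, but one around an 84-nt exon at 0.523% and 0.757%. In DDX39B, a helicase of splicing and export, retention was lower, with 28.74%, 29.47% and 32.25% in Control and 24.69%, 24.85% and 23.11% in DFMO (adjusted p = 0.0117). Each group of 3 was apart from the other in SF3B1, SF1, TIA1, LUC7L and DDX39B. With 1 library left out, SF3B1 passed in 1 of 6 fits (adjusted p up to 0.207), SF1 in 2 (up to 0.194), TIA1 in 2 (up to 0.372), LUC7L in 2 (up to 0.364) and DDX39B in 3 (up to 0.145).

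**Figure D5:**
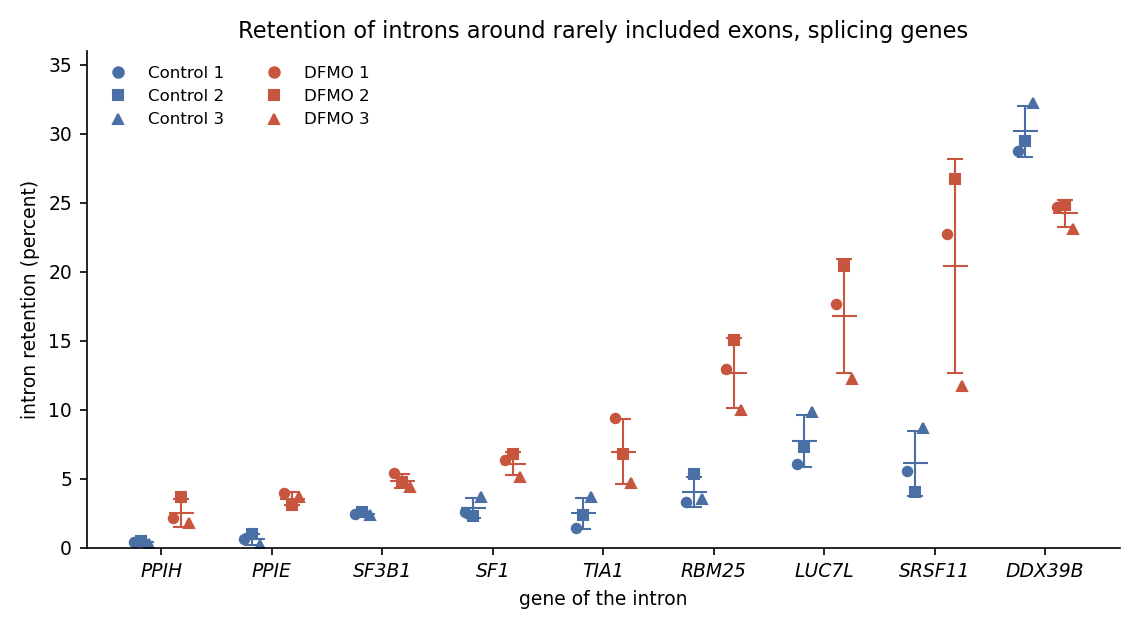
Retention in percent (y axis) of the 9 introns around rarely included exons that passed an adjusted p of 0.05 in genes of the splicing lists (x axis), in each Control (blue) and DFMO (red) library; bars are the mean ± SD of 3 libraries. Retention is higher in DFMO in 8 of them, up to 26.72% in SRSF11, and lower in DDX39B.

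By the size of the log2 odds difference, the first 6 introns that passed were those of XPC, CCNC, NRCAM, SAP30BP, FOXRED1 and PPIE. XPC, which detects damage in nucleotide excision repair, was the 1 with lower retention, at 3.70%, 8.24% and 7.35% in Control and 0.00% in all 3 DFMO libraries. CCNC, a cyclin of the Mediator kinase, was at 0.00% in all 3 Control libraries and at 1.22%, 0.85% and 1.20% in DFMO. NRCAM had means of 0.163% and 1.87%. FOXRED1, an assembly factor of complex I, had 1.40% and 7.28%, and PPIE, a spliceosomal cyclophilin, had 0.610% and 3.57%. Of the 6, the intron of SAP30BP passed in every fit that left out 1 library. It was at 0.39%, 0.41% and 1.03% in Control and at 5.95%, 4.29% and 2.40% in DFMO (adjusted p = 0.000375, and at most 0.0481 with a library left out), and it is the intron of the 54-nt exon that passed. Those of XPC, CCNC and NRCAM passed in none of these 6 fits, that of PPIE in 1 and that of FOXRED1 in 3. The 177-nt exon in the intron of PPIE was at 1.40%, 1.31% and 1.88% in Control and at 5.26%, 5.02% and 6.34% in DFMO, with an adjusted p of 0.24.

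Other introns that passed had high retention already in Control. In CEP152, of the centriole, retention was at 34.91%, 20.08% and 29.33% in Control and at 52.93%, 52.85% and 81.12% in DFMO (adjusted p = 3.58e-05), and it passed with any 1 library left out. Its unannotated 211-nt exon was at 2.31% and 2.07%, on 4 and 3 inclusion junction reads. In OGT, the enzyme that adds N-acetylglucosamine to nuclear and cytosolic proteins, the intron was at 22.08%, 25.32% and 27.27% in Control and at 38.05%, 43.2% and 31.98% in DFMO (adjusted p = 0.0208, and up to 0.333 with a library left out). Its 146-nt exon was at 2.43% and 2.34%. The number of introns that passed with higher retention was 10 and 11 without Control replicates 1 and 2, 7 and 8 without DFMO replicates 1 and 2, and 21 and 20 without replicate 3 of either group. The number with lower retention was 1 to 4.

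The level of the genes was a further readout apart from the choice, taken as log2 of 1 plus the CPM (reads scaled to the library's total of event reads), averaged over exons of the gene that were not among the rarely included ones. Of 9151 genes fitted, 20.6% passed with a higher level in DFMO and 25.5% with a lower level. Among the 3844 genes with a rarely included exon, 746 (19.4%) passed higher and 982 (25.5%) lower, and the median log2 difference was -0.01 both there and over all genes. In bulk RNA, a lower level in every cell and fewer cells with the transcript cannot be told apart.

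Of the 7 genes whose exon passed, 6 had a lower level in DFMO with an adjusted p below 0.05. KNSTRN fell by 0.45 on this log2 scale (3.40, 3.29 and 3.38 in Control, 2.87, 2.94 and 2.91 in DFMO, adjusted p = 4.28e-05). LUC7L fell by 0.39 (2.83, 2.74 and 2.85 against 2.42, 2.47 and 2.35) and SAP30BP fell by 0.24, from 2.53 to 2.29 in the mean. U2AF2 fell by 0.15 (4.61, 4.61 and 4.62 against 4.43, 4.47 and 4.48, adjusted p = 0.00122), DDC fell by 0.14 and TTYH3 fell by 0.10 (adjusted p = 0.0497). With 1 library left out, TTYH3 passed in 1 of 6 fits (adjusted p up to 0.156), and the other 5 genes passed in all 6. For SCRIB the means were 2.03 and 2.02. Genes with a passing intron went both ways, and more of them were lower than higher at an adjusted p below 0.05 in limma. Those lower were ANAPC7, C7orf26, C9orf3, CCNC, IARS, LUC7L, NCBP3, NRCAM, PAXBP1, PPIH, PUS7, SAP30BP, SRSF11 and ZDHHC6. Those higher were DDX39B, NRP1, NUMA1, OGT and SF1. DDX39B, whose intron was less retained, was higher in DFMO (4.34 and 4.68), as was OGT (2.23 and 2.67), while RBM25 (2.97 and 2.89, adjusted p = 0.17) and SF3B1 (3.57 and 3.58, adjusted p = 0.83) did not pass. Whether these levels take part in the exons' differences was not tested.

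The limits of 0.5% and 5% cut through a continuous range. Within 0.05 points of the lower limit lay 312 exons below it and 315 above it. Just outside were exons of UBL7-AS1 and MAP3K20, both with a Control mean of 0.497% (DFMO 0.00% and 0.300%), and just inside were exons of ABCC1 and ADIPOR2, both at 0.50% (DFMO 1.29% and 0.00%). At the upper limit, exons of CD200 and CINP were inside, both at 4.997% (DFMO 3.41% and 2.72%), and exons of C9orf72 and SLC39A9 were outside, both at 5.003% (DFMO 3.51% and 2.41%). The exon of CINP shows how loosely single values are known, with 0.00%, 10.34% and 4.65% in the 3 Control libraries. The levels at the limits are given with no test.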

How the data were processed

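Splicing in SKNBE2 cells was measured by mRNA sequencing of 3 Control and 3 DFMO libraries. The deposited table gave the authors' percent for each event and library, beside a quality text with a coverage score and reads for inclusion and exclusion; GRCh38 is named in the submitters' processing notes, and of the aligner and the quantifying tool the sources used here say nothing. The percents differ from the ratio of the raw junction reads beside them for some events, so the reads were also fitted uncorrected. All 6 value columns were used. The reads split by the percent, with 0.5 added to each side, gave log2 odds, fitted in R 4.3.3 with limma 3.58.1 (robust, with a variance trend on expected counting variance). Exons and introns entered with 10 reads per library and a mean of 0.25% to 99.75%. Two-sided p-values were adjusted (Benjamini-Hochberg) over all exons, introns or genes fitted, with a threshold of 0.05. The fits were tested on simulated data. Annotation and exon sequences came from GENCODE v29 on GRCh38.

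The members and lists were chosen with earlier results of these data known. Exons were to be named by passing with 10 points and groups apart, by passing lower, by passing in a gene list (up to 2 each) or as microexons, by the 5 narrowest intervals without a pass, and by nearness to a limit (2 on each side). Introns were named by size among those passing (up to 6). All others were named after their values were seen. Because the files gave no gene counts, gene levels came from junction reads. No sequence was read for unannotated exons or introns.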

Additional observations from a re-analysis of the deposited data

How the results depend on the processing

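Counting of rare reads limits these results, since the median exon had 7 inclusion junction reads per group, and intervals cover the spread of 3 libraries only. Of the rarely included exons, 7 passed higher and 0 lower. The higher count was 0 without the variance trend, 3 on the percent scale and 58 in the quasi-binomial test, and 27 with uncorrected junction reads, an alternative added after seeing the data. The lower count was 1 with 0.1 reads added, 19 in the quasi-binomial test, 2 without the filter on the mean percent, 7 with uncorrected reads, and 1 among exons with 12 or more inclusion junction reads, also added after seeing the data. Exons that passed and were 10 points higher numbered 0, and 8 in the quasi-binomial test, 1 with means from 5% to 95% and 4 with uncorrected reads. The range of 5% to 95% and the minimum of 12 reads count the DFMO libraries, so that higher inclusion there itself brings exons in, and for the former, with Control means under 5%, only that can. With 1 library left out, 0 to 1 passed higher. The 7 exons were all among those that passed with 0.1 reads added, in the quasi-binomial test, with 20 reads required, with uncorrected reads and with 12 or more inclusion junction reads. With 1 read added, 5 of them passed. When exons flagged in any library for the balance of their junction reads were left out, 541 of the 6615 remained. Of the 541, 5 passed higher and 0 lower, and 4 of those were among the 7 (DDC, LUC7L, TTYH3 and U2AF2). The exons of KNSTRN, SAP30BP and SCRIB were not among the 541.

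For introns around these exons, 29 passed higher and 4 lower. Without the variance trend both counts were 0, and with 1 library left out they were 7 to 21 and 1 to 4. Gene level counts stayed within 1.5 times of 746 and 982 under every alternative. When 2 Control libraries chose the exons, the DFMO mean exceeded that of the free Control library by 0.207, 0.186 and 0.217 points, against 0.163 points with all 3 choosing. Among the single exons, introns and genes named, 2318 recomputed results stayed on the same side of the threshold. A call was lost in 251, gained in 42 and reversed in none. The 2318 include results that passed in neither fit, so they are not a count of calls that held. The causes were not tested.

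Deviations of same-numbered libraries from their group means had correlations of -0.02, -0.002 and -0.007. Those of differently numbered Control and DFMO libraries ran from -0.01 to 0.017. Such values cannot tell whether libraries shared a culture or a batch. With the replicate number as a block, 7 exons passed higher, 0 lower and 0 with 10 points, introns numbered 23 and 4, and genes 694 and 897.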
